A study of Danio rerio with 8 samples.

Results

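The genes described here are 10 transcription factor genes of the surface ectoderm, the embryonic layer from which epidermis and corneal epithelium arise. They are tfap2a, tfap2b and tfap2c of the AP-2 family, ovol1a and ovol1b of the Ovo-like zinc finger family, grhl1, grhl2a, grhl2b and grhl3 of the Grainyhead-like family, and tp63, which encodes p63. They were chosen by name from these families, but with earlier results of these data known, and are no independent evidence of a direction. All 10 were matched to a gene identifier among the 32520 genes of the count table. The identifier of grhl2b (ENSDARG00000061974) was found through the synonym grhl2, and the other 9 through their own symbol or its capital form.

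The study abraded the corneas of adult zebrafish and sequenced corneal RNA 1.5 h later. All fish were wild type on the AB background, and each of the 8 libraries pooled 6 corneas from 3 fish. Wounded fish had both corneas abraded with an ocular burr under anesthesia, while the controls were sham-handled fish that had the anesthesia and the time on the sponge but no abrasion. According to the paper, the burr served to take away the epithelium of the central cornea. What this loss of tissue contributes to the levels was not tested. Control and wounded libraries 1 to 4 form pairs from 4 tanks, in which the fish were 180, 145, 148 and 183 days old, in the order of the numbers. The pooled libraries are the replicates, so the p-values measure the spread between pools and not between single fish.

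AP-2 proteins bind DNA as dimers and act early in the non-neural ectoderm and the neural crest. Grainyhead-like proteins switch on genes of epithelial junctions and of the skin barrier, Ovo-like proteins repress genes of the mesenchymal state in mammalian epithelia, and p63 maintains the basal keratinocytes of stratified epithelia. In the cornea such factors are known as regulators of epithelial identity, and AP-2 and p63 proteins are found in the corneal epithelium of mammals.

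Values are given as CPM, the counts per 1000000 counts of the library, scaled between libraries by the TMM method. The counts summed to between 39472162 and 44250662 per library. Wounded library 1 stood apart, with a median root mean square log2 distance of 0.617 to its own group where the other 7 libraries lay between 0.482 and 0.534. Its sum over 6 corneal epithelial markers (cdh1, epcam, krt4, krt5, krt8 and krt18a.1) was 37357 CPM, against 57478 to 60451 CPM in the control libraries and 55142 to 59764 CPM in wounded libraries 2 to 4. Most of this sum is krt5, at 22659 CPM in wounded library 1 and 41521 to 42767 CPM in control. In wounded library 1 krt4 was also below all control libraries and krt8 within their range. The levels of cdh1, epcam and krt18a.1 were above all control libraries there. The study had left this library out after a principal component analysis, and abraded and control corneas are compared here over control libraries 1 to 4 and wounded libraries 2 to 4, with wounded library 1 given beside them. A gene is said to have fallen or risen where the edgeR quasi-likelihood test over 18935 genes gave a Benjamini-Hochberg adjusted p under 0.05. For wounded against control, counts of list genes at an unadjusted p under 0.05 are given without the share of all genes at that cut-off. Such counts are not read as results about a list. A log2 fold change is the wounded over the control level on a log2 scale, so that negative values mean lower after abrasion.

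All 10 genes passed the filter on low counts, and all 10 had a negative log2 fold change, as had 48.9% of all genes tested. The median over the 10 genes was -0.84, where that of all genes tested was 0.01. The genes that fell were tfap2a, tfap2b, tfap2c, grhl1 and grhl2a, which is 5 of 10, and 0.634% of all genes tested fell. None of the 10 rose, against 0.734% of all genes tested. With the tank as a block in the same test, 8 of 10 fell against 2.51% of all genes, and 2.71% of all genes rose. The additional genes were ovol1a, ovol1b and grhl2b. The remaining genes, grhl3 and tp63, did not pass in either fit. In pooled corneas, fewer cells of a type and less RNA per cell cannot be told apart.

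**Figure D1:**
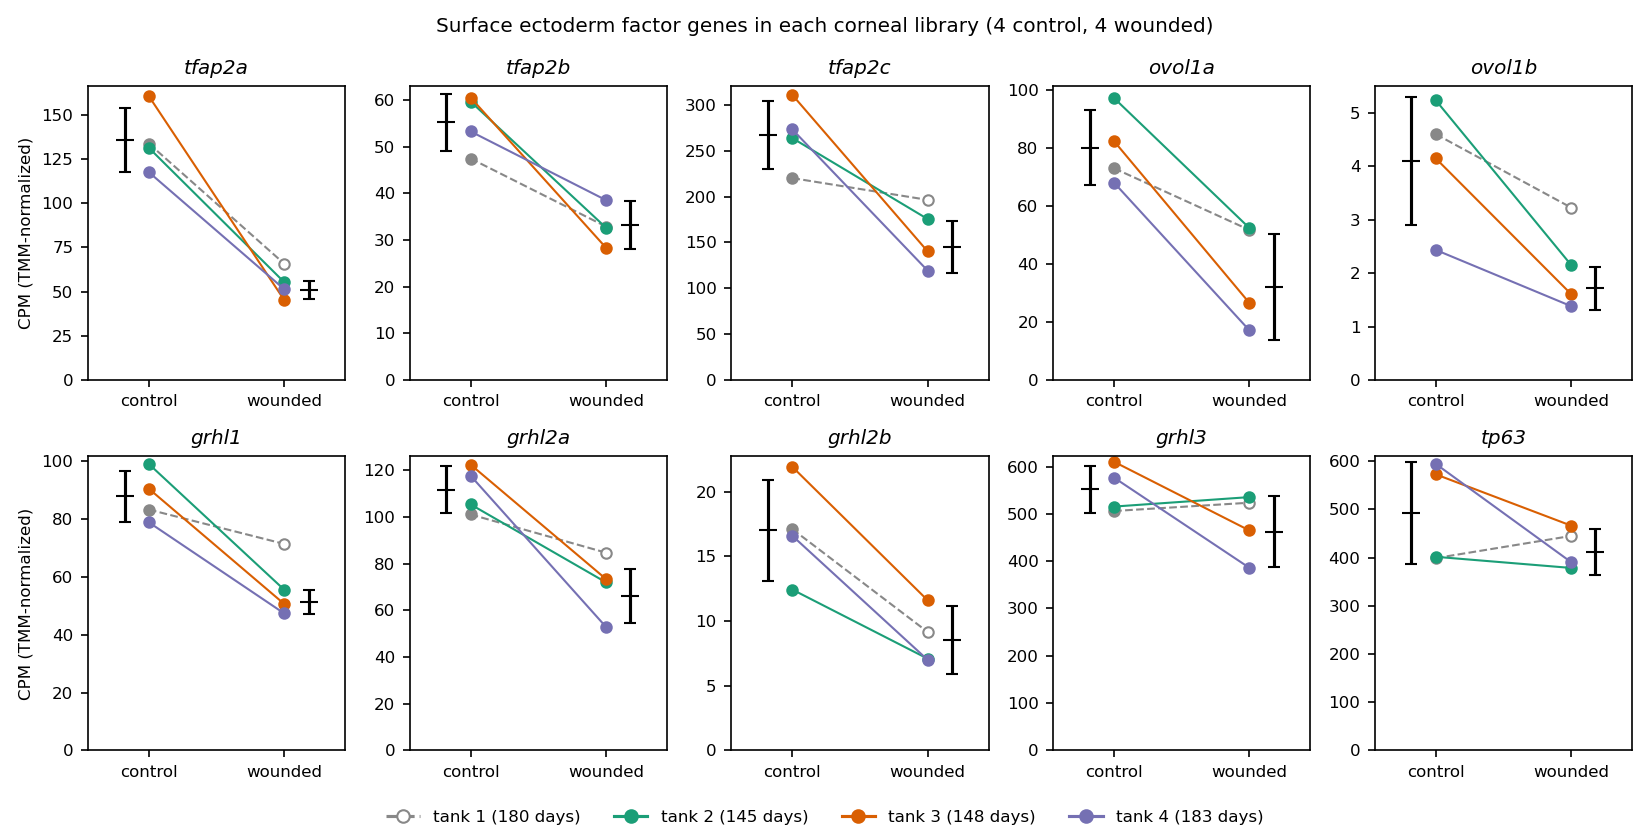
TMM-normalized CPM (vertical axes, starting at 0) of the 10 factor genes in each control and wounded library, with a line joining the libraries of 1 tank and bars for the mean and SD of control libraries 1 to 4 and wounded libraries 2 to 4. The open circle is wounded library 1. In 8 panels wounded libraries 2 to 4 lie below every control library, and in those of grhl3 and tp63 the groups overlap.

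The lowest log2 fold change of the 10 genes was that of tfap2a (ENSDARG00000059279), which in zebrafish acts with tfap2c in the non-neural ectoderm and neural crest. Its level was 134, 131, 161 and 118 CPM in control libraries 1 to 4, and 55.3, 45.2 and 51.4 CPM in wounded libraries 2 to 4, with 65.8 CPM in wounded library 1. Every wounded library was thus far below every control library, wounded library 1 included. The mean went from 136 ± 17.98 CPM (SD, n = 4) to 50.6 ± 5.08 CPM (SD, n = 3). The edgeR fit put the wounded level of tfap2a at 37.1% of control. Its log2 fold change was -1.43 (standard error 0.15, 95% interval -1.75 to -1.11, adjusted p = 0.00348 in edgeR), and this was the gene with rank 6 by p among the 18935 genes tested. Tank by tank, the log2 ratio of the wounded to the control library was -1.02, -1.25, -1.83 and -1.19 for tanks 1 to 4. The reduction was seen in each of the 4 tanks and was largest in tank 3, where the control level was also the highest.

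Its relative tfap2c (ENSDARG00000040606), a partner of tfap2a in the early ectoderm, measured 220.1, 264, 311 and 273 CPM in the control libraries and 175, 140.2 and 119 CPM in wounded libraries 2 to 4. The groups did not overlap, and wounded library 1, at 196 CPM, lay between them. Its mean was 267 ± 37.3 CPM (SD, n = 4) without and 145 ± 28.4 CPM (SD, n = 3) with abrasion, and tfap2c fell with a log2 fold change of -0.89 (its standard error 0.16, 95% interval -1.25 to -0.52, adjusted p = 0.0352 in edgeR). With wounded library 1 in the fit, its adjusted p was 0.0542. The tank ratios of tfap2c ran from -0.16 in tank 1 and -0.59 in tank 2 to -1.15 in tank 3 and -1.20 in tank 4.

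The third AP-2 gene, tfap2b (ENSDARG00000012667), which in the mouse is needed for the corneal endothelium, measured 47.4, 59.7, 60.5 and 53.3 CPM in the control libraries. Wounded libraries 2 to 4 held 32.6, 28.3 and 38.5 CPM and wounded library 1 held 32.9 CPM. All 4 wounded libraries were below all 4 control libraries, and wounded library 1 was in the middle of its group. The log2 fold change of tfap2b was -0.74 (standard error 0.15, 95% interval -1.08 to -0.41, adjusted p = 0.0456 in edgeR). The control mean was 55.2 ± 6.11 CPM (SD, n = 4), and that of wounded libraries 2 to 4 was 33.2 ± 5.11 CPM (SD, n = 3). In the reference annotation of the GRCz12tu assembly tfap2b lies beside tfap2d, a further AP-2 gene, which had too few counts to be tested.

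Because a ratio of 2 genes within a library does not depend on the scaling of that library, the AP-2 genes were also set against each other. The log2 ratio of tfap2a to tfap2b lay between 1.14 and 1.49 in the control libraries and between 0.41 and 0.76 in wounded libraries 2 to 4, with 1.001 in wounded library 1. This ratio was lower in every wounded library, with tfap2a lower relative to tfap2b than in any control library. The ratio of tfap2a to tfap2c was -1.22 to -0.72 in control and -1.67 to -1.22 in wounded libraries 2 to 4, where the groups met at wounded library 4 and control library 4. The ratio of tfap2b to tfap2c overlapped between the groups, at -2.36 to -2.14 in control and -2.43 to -1.63 in wounded libraries 2 to 4. These ratios are a description of unequal change and were not tested.

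The Ovo-like genes had log2 fold changes near that of tfap2a, with larger standard errors. In mammals Ovol1 holds back proliferation as epidermal cells differentiate. The level of ovol1a (ENSDARG00000076472) was 72.9, 97.1, 82.2 and 67.9 CPM in control libraries 1 to 4 and 52.3, 26.5 and 17.1 CPM in wounded libraries 2 to 4, with 51.6 CPM in wounded library 1. All wounded libraries were below all control libraries, but wounded library 2 held about as much as wounded library 1 and far more than wounded library 4. The means were 80.0 ± 12.8 CPM (SD, n = 4) and 31.97 ± 18.2 CPM (SD, n = 3). This difference of -1.33 on the log2 scale (standard error 0.32, 95% interval -2.03 to -0.63) did not pass over 7 libraries (adjusted p = 0.0674 in edgeR). With the block ovol1a fell (log2 fold change -1.51, adjusted p = 0.00569 in edgeR). The tank ratios of ovol1a were -0.50, -0.89, -1.63 and -1.99 for tanks 1 to 4, all lower in the wounded library.

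The copy ovol1b (ENSDARG00000078256) was the gene with the fewest reads of the 10, with 105 to 229 counts in the control libraries and 58 to 88 counts in wounded libraries 2 to 4. Its level was 4.602, 5.24, 4.15 and 2.43 CPM in control libraries 1 to 4 and 2.15, 1.61 and 1.38 CPM in wounded libraries 2 to 4. Wounded libraries 2 to 4 were below every control library by a narrow margin to control library 4, while wounded library 1, at 3.23 CPM, was above that library. The log2 fold change was -1.27 (standard error 0.31, 95% interval -1.96 to -0.57), with an adjusted p of 0.0727 in edgeR over 7 libraries and 0.0361 with the tank as a block. Between the copies, the log2 ratio of ovol1a to ovol1b overlapped, at 3.99 to 4.80 in control and 3.63 to 4.603 in wounded libraries 2 to 4.

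Of the Grainyhead-like genes, grhl1 (ENSDARG00000061391) and grhl2a (ENSDARG00000058342) fell. In the mouse Grhl1 acts on desmosomal genes of the epidermis, and Grhl2 on E-cadherin and claudin genes. The level of grhl1 was 83.2, 99.0, 90.4 and 78.8 CPM in control libraries 1 to 4 and 55.5, 50.6 and 47.3 CPM in wounded libraries 2 to 4, with 71.4 CPM in wounded library 1. Wounded libraries 2 to 4 lay close together and well below the control libraries, and wounded library 1 lay between the groups. Its mean went from 87.9 ± 8.82 CPM (SD, n = 4) to 51.2 ± 4.12 CPM (SD, n = 3), and grhl1 fell with a log2 fold change of -0.79 (its standard error 0.13, 95% interval -1.08 to -0.50, adjusted p = 0.0281 in edgeR). With all 8 libraries the adjusted p was 0.0651, and the tank ratio was -0.22 in tank 1, against -0.83, -0.84 and -0.74 in tanks 2 to 4.

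For grhl2a the control libraries held 101, 105, 122 and 118 CPM and wounded libraries 2 to 4 held 72.0, 73.5 and 52.9 CPM. The groups did not overlap, and wounded library 1, at 84.7 CPM, was also below all control libraries. The means were 112 ± 10.1 CPM (SD, n = 4) and 66.1 ± 11.5 CPM (SD, n = 3), and grhl2a fell with a log2 fold change of -0.76 (its standard error 0.15, 95% interval -1.09 to -0.43, adjusted p = 0.0411 in edgeR). With all 8 libraries grhl2a had an adjusted p of 0.0628.

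The second copy of grhl2, grhl2b, measured 17.1, 12.4, 21.9 and 16.6 CPM in control libraries 1 to 4 and 7.10, 11.6 and 7.002 CPM in wounded libraries 2 to 4, with 9.16 CPM in wounded library 1. Wounded library 3 came near to control library 2, yet all wounded libraries were below all control libraries. The difference on the log2 scale was -0.997 (standard error 0.24, 95% interval -1.54 to -0.46), with an adjusted p of 0.0706 in edgeR over 7 libraries and 0.0118 with the tank as a block. Both the highest control and the highest wounded level of grhl2b were found in tank 3, and its tank ratios were even, at -0.90, -0.81, -0.92 and -1.25 for tanks 1 to 4. In the GRCz12tu annotation grhl2a lies beside ncalda and grhl2b beside ncaldb. The neighbours on the other side differ, with tapbpl for grhl2a and znf706 for grhl2b.

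The fourth Grainyhead-like gene behaved differently. In the mouse Grhl3 is needed for epidermal barrier formation and wound repair. The level of grhl3 (ENSDARG00000078552) was 506, 515, 610.0 and 576 CPM in the control libraries and 535, 465 and 386 CPM in wounded libraries 2 to 4, with 524 CPM in wounded library 1. The groups overlapped, with wounded libraries 1 and 2 slightly above their own controls and wounded libraries 3 and 4 below theirs. For grhl3 the log2 fold change was -0.26 (standard error 0.14, 95% interval -0.56 to 0.04, adjusted p = 0.333 in edgeR), so that a reduction of up to 0.56 on the log2 scale lies within the interval. The tank ratios of grhl3 were 0.05, 0.05, -0.39 and -0.58.

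Set against grhl3 in the same library, the other Grainyhead-like genes were lower after abrasion. The log2 ratio of grhl2a to grhl3 was nearly constant in the control libraries, at -2.32 to -2.29, and was -2.89 to -2.66 in wounded libraries 2 to 4 and -2.63 in wounded library 1. For grhl1 the same ratio was -2.87 to -2.38 in control and -3.27 to -3.03 in wounded libraries 2 to 4, with -2.87 in wounded library 1, which was at the edge of the control range. For grhl2b the ratio to grhl3 overlapped at 1 point, at -5.37 to -4.80 in control and -6.24 to -5.32 in wounded libraries 2 to 4. The ratios of grhl1 to grhl2a (-0.58 to -0.09 in control, -0.54 to -0.16 in wounded libraries 2 to 4) and of grhl1 and grhl2a to grhl2b overlapped. These ratios too were not tested.

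The gene for p63, tp63 (ENSDARG00000044356), measured 399, 402, 573 and 594 CPM in control libraries 1 to 4 and 379, 466 and 391 CPM in wounded libraries 2 to 4, with 445 CPM in wounded library 1. The control libraries fell into a lower pair from tanks 1 and 2 and a higher pair from tanks 3 and 4, and the wounded libraries lay around the lower pair and below the higher pair. The means were 492 ± 106 CPM (SD, n = 4) for control and 412 ± 47.6 CPM (SD, n = 3) for wounded corneas. The log2 fold change was -0.26 (standard error 0.17, 95% interval -0.64 to 0.11, adjusted p = 0.439 in edgeR), and the tank ratios were 0.16, -0.09, -0.30 and -0.61. The counts do not separate the isoforms of p63, whose opposing activities are known in keratinocytes. The log2 ratio of tfap2a to tp63 did not overlap, at -2.34 to -1.58 in control and -3.37 to -2.77 in wounded libraries 2 to 4, whereas that of grhl3 to tp63 did, at -0.04 to 0.36 in control and -0.02 to 0.50 in wounded libraries 2 to 4.

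Over the 10 genes, wounded libraries 2 to 4 lay below every control library for 8 of 10, which was the case for 9.12% of all genes tested. With wounded library 1 counted as well, this held for 7 of 10 against 5.85% of all genes, the gene that dropped out being ovol1b. The wounded library was lower than its own control in all 4 tanks for 8 of 10, against 15.2% of all genes, and the exceptions were again grhl3 and tp63. Tank 1, which holds wounded library 1, had the smallest reduction of the 4 tanks for tfap2a, tfap2c, ovol1a, ovol1b, grhl1 and grhl2a.

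**Figure D2:**
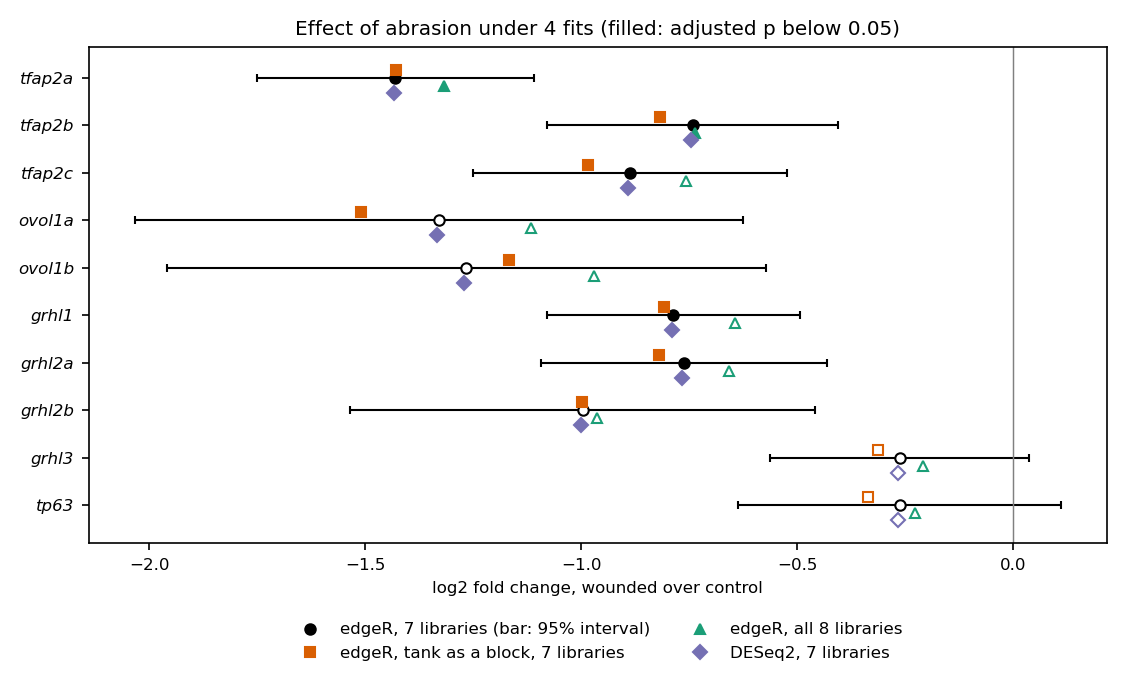
Log2 fold change of the 10 factor genes (horizontal axis) in edgeR with 7 libraries, with the 95% interval as a bar, and in edgeR with the tank block, in edgeR with all 8 libraries and in DESeq2. Filled symbols have an adjusted p under 0.05. All 40 symbols lie below 0, and those of grhl3 and tp63 are open in every fit.

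How firmly each gene was called depended on the fit. With all 8 libraries and no block, 2 of 10 fell, tfap2a (log2 fold change -1.32, adjusted p = 0.00265 in edgeR) and tfap2b (-0.74, adjusted p = 0.0360), and 0.468% of all genes did so. With all 8 libraries and the tank as a block, 7 of 10 fell against 1.88% of all genes, and the gene lost from the 8 was ovol1b. DESeq2 over 7 libraries called 8 of 10 lower, where it called 5% of the genes with an adjusted p lower and 4.3% higher. DESeq2 with the tank as a block called 8 of 10 lower, against 6.18% of the genes with an adjusted p. Leaving out 1 library at a time, tfap2a passed in 7 of 7 fits, with adjusted p between 0.00183 and 0.0361 in edgeR. Of the others, grhl1 passed in 3 of 7 fits (0.0288 to 0.138), tfap2c in 2 of 7 (0.0332 to 0.149) and grhl2a in 1 of 7 (0.0380 to 0.138), while tfap2b passed in 0 of 7, with adjusted p between 0.0552 and 0.179. Of the genes that had not passed, ovol1a passed without wounded library 2 (adjusted p = 0.0149), ovol1b without control library 4 (0.0442) and grhl2b without control library 2 (0.0404).

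The number of the 10 genes that fell was 1 without control library 1 (0.0857% of all genes), 1 without control library 3 (0.0535%), 1 without wounded library 3 (0.0359%) and 1 when wounded library 4 was left out (0.0824%), and that gene was tfap2a each time. It was 3 without control library 4 (0.493% of all genes), 4 without wounded library 2 (0.384%) and 5 without control library 2 (1.03%). The fold changes themselves moved less, for example between -1.50 and -1.33 for tfap2a, between -0.85 and -0.73 for grhl1 and between -1.89 and -1.03 for ovol1a.

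**Figure D3:**
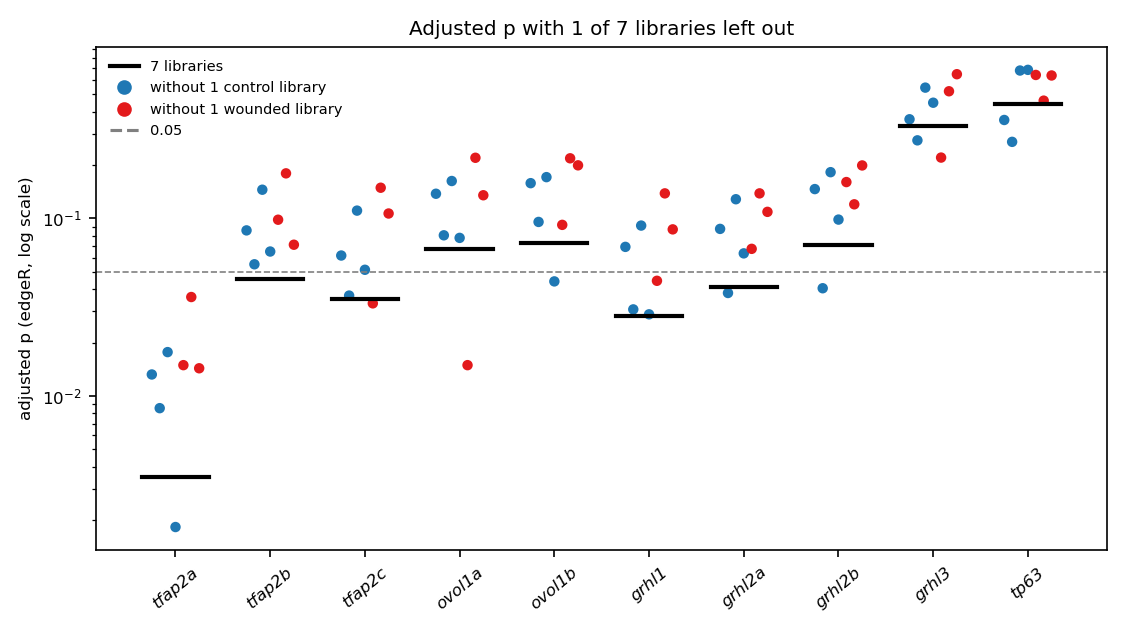
Adjusted p of the 10 factor genes in edgeR (vertical axis, log scale) with 7 libraries (black bar) and with each of the 7 libraries left out in turn, in blue for control and red for wounded libraries. The dashed line is at 0.05. The points of tfap2a all lie below the line, and those of tfap2b, grhl3 and tp63 all lie above it.

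The 4 tanks also differ in age, and the effect of abrasion was compared between the older tanks (180 and 183 days) and the younger tanks (145 and 148 days) over all 8 libraries. The difference between the age classes, older minus younger, ran from -0.19 for grhl2b to 0.71 for ovol1b on the log2 scale. The older wounded libraries include wounded library 1, so this difference rests in part on the library that stood apart. None of the 10 genes passed, with unadjusted p between 0.125 and 0.945 in edgeR and an adjusted p of 0.9997 for each. The interaction passed for 0 of 18602 genes in edgeR and 0 of 25573 genes in DESeq2. In edgeR 339 genes (1.82%) reached an unadjusted p of 0.05, with 0 of the 10 among them. With 2 libraries per age class and condition, a difference of 0.48 in tfap2b had a standard error of 0.29.

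The epithelial markers of the same libraries were measured beside these genes. The mean log2 CPM of the 6 markers was 11.71 ± 0.04 (SD, n = 4) in control corneas and 11.93 ± 0.06 (SD, n = 3) in wounded libraries 2 to 4, with 11.63 in wounded library 1. Of the 6 markers, krt18a.1 rose (388.5 to 665 CPM, log2 fold change 0.77, adjusted p = 0.0260 in edgeR) and the other 5 did not pass. At an unadjusted p under 0.05, 3 of 6 were higher and 0 lower, the others being krt8 (2311 to 3037 CPM, log2 fold change 0.39) and epcam (3255 to 3894 CPM, 0.25), while cdh1, which encodes E-cadherin, was at 1217 ± 83.2 (SD, n = 4) and 1316 ± 152 CPM (SD, n = 3). The marker list had held 9 symbols, of which pax6a, pax6b and krtt1c19e were not matched to an identifier. A PAX6 copy (ENSDARG00000103379) was therefore not among the 6 markers. That copy fell (log2 fold change -1.56, adjusted p = 0.0109 in edgeR). Relative to the markers, wounded libraries 2 to 4 lay below all control libraries for all 10 genes, grhl3 and tp63 included. The share of all genes for which this held was not computed. The marker mean was itself 11.65 to 11.73 in the control libraries and 11.86 to 11.98 in wounded libraries 2 to 4. A gene with an unchanged CPM would therefore also have a lower ratio.

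The difference in the log2 ratio to the markers, wounded libraries 2 to 4 minus control, was -1.63 for tfap2a, -1.11 for tfap2c and -0.95 for tfap2b. It was -1.67 for ovol1a and -1.25 for ovol1b. Among the Grainyhead-like genes it was -1.18 for grhl2b, -0.996 for grhl1, -0.99 for grhl2a and -0.49 for grhl3, and it was -0.46 for tp63. With wounded library 1 the groups overlapped for ovol1b, grhl3 and tp63. This ratio was not tested, and the marker mean under it was itself higher in wounded libraries 2 to 4. Without the markers, the log2 fold change of grhl3 and of tp63 was -0.26 each.

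**Figure D4:**
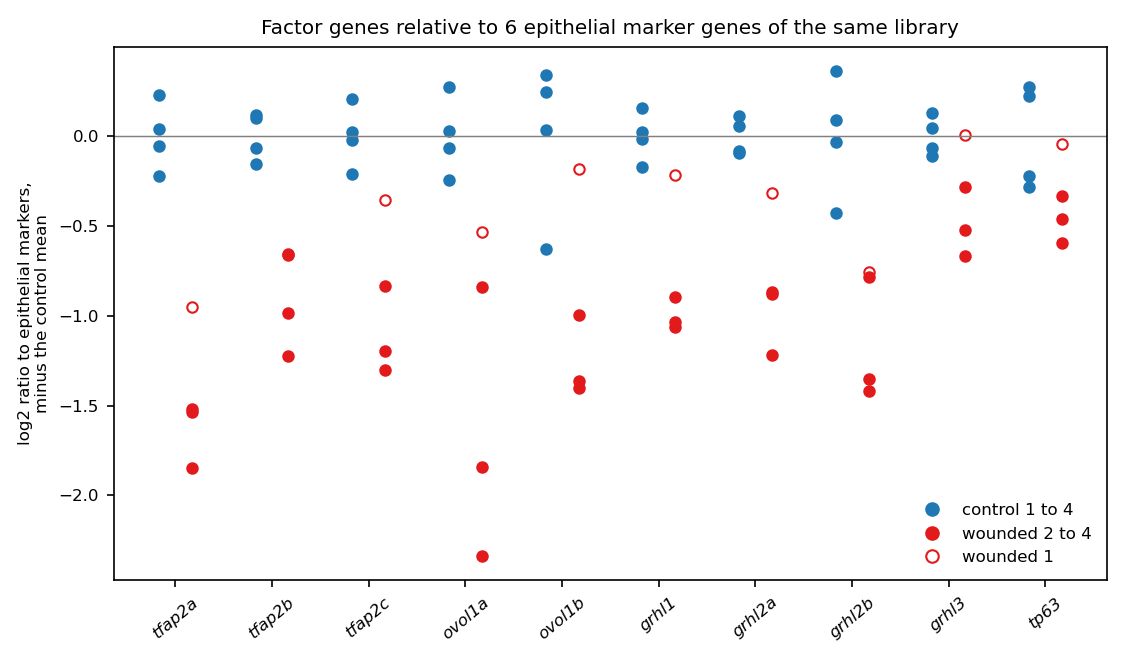
Log2 ratio of each of the 10 factor genes to the mean of 6 epithelial marker genes of the same library (vertical axis), shown as the difference from the mean of control libraries 1 to 4. Blue points are control libraries, filled red points wounded libraries 2 to 4 and open red circles wounded library 1. For all 10 genes the filled red points lie below the blue points, with the smallest distance for grhl3 and tp63. The share of all genes for which this held was not computed, and the marker mean was itself higher in wounded libraries 2 to 4.

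Markers of other cells that a dissected cornea could hold were summed in the same way. The sum over 6 keratocyte markers was 8532 to 13671 CPM in control and 9071 to 16568 CPM in wounded libraries 2 to 4, where 0 of 6 passed in edgeR or DESeq2 and 0 had an unadjusted p under 0.05. For amacrine cells, retinal neurons that express AP-2 genes, the sum over 7 markers was 19.1 to 26.5 CPM in control and 18.9 to 30.1 CPM in wounded libraries 2 to 4, and of these markers ptf1a had no count in any library. Of the amacrine cell markers 0 of 6 passed in edgeR or DESeq2, with 0 at an unadjusted p under 0.05. Markers of pigment cells and neural crest, a lineage that also expresses tfap2a, summed to 27.3 to 31.9 CPM in control and 34.3 to 37.6 CPM in wounded libraries 2 to 4, and 0 of 9 passed in edgeR without the block, 2 with the block (foxd3 and pnp4a) and 1 in DESeq2, with 3 at an unadjusted p under 0.05, all higher. Leukocyte markers summed to 59.9 to 77.4 CPM and 77.6 to 99.1 CPM in the same order (0 of 7 in edgeR or DESeq2, 2 at an unadjusted p under 0.05), and mucous cell and ionocyte markers to 271 to 488 and 529 to 572 CPM (0 of 5 in edgeR without the block, 1 with the block, agr2, and 1 in DESeq2, with 3 at an unadjusted p under 0.05, all higher). Vascular endothelial markers summed to 41.7 to 48.2 and 50.6 to 72.7 CPM, and 1 of 4, flt1, rose, with 3 at an unadjusted p under 0.05, all higher. Photoreceptor and retina markers summed to 134 to 297 CPM in control and 137 to 281 CPM in wounded libraries 2 to 4 (0 of 8 in edgeR or DESeq2, 0 at an unadjusted p under 0.05), and lens markers to at most 0.783 CPM in any library. In wounded library 1 the keratocyte sum (5944 CPM) was below all control libraries, and the leukocyte sum (61.8 CPM) was within their range. Above all control libraries there were amacrine cell (30.6 CPM), pigment cell and neural crest (45.4 CPM) and vascular endothelial markers (68.9 CPM). The same held for photoreceptor and retina (343 CPM) and for mucous cell and ionocyte markers (530 CPM). The share of all genes with an unadjusted p under 0.05 is not given here, so those counts stand without a background. The part of these cells in the levels of the 10 genes was not tested.

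Other tested genes of the same families did not pass, and the symbols ovol2, ovol3a and ovol3b were not matched to an identifier. Of 6 tested, 0 rose and 0 fell in edgeR with or without the block and in DESeq2, 1 was at an unadjusted p under 0.05, and their median log2 fold change was 0.02. The genes with the smallest p were tfcp2 (-0.38, adjusted p = 0.184 in edgeR) and ubp1 (0.20, adjusted p = 0.748), distant relatives of the Grainyhead genes, and tp73 (-0.74, adjusted p = 0.475), a relative of tp63. Of 10 genes for cofactors and inhibitors that bind AP-2, Grainyhead or p63 proteins or set their stability, 0 passed in edgeR with or without the block and in DESeq2, and 0 were at an unadjusted p under 0.05. Their median was -0.08, and cited1, a gene of the Cited family, had -0.58 (adjusted p = 0.372 in edgeR). For mdm2 the value was -0.18 (adjusted p = 0.616) and for lmo4a it was 0.12 (adjusted p = 0.685).

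Among 14 other transcription factors of the surface ectoderm and periderm, 1 rose and 0 fell over 7 libraries, 9 had a negative log2 fold change and the median was -0.27. With the block, 1 rose and 3 fell. The gene that rose was msx1b, a homeobox gene of ectoderm margins, which lay between 17.1 and 23.7 CPM in control and between 33.4 and 34.96 CPM in wounded libraries 2 to 4 (log2 fold change 0.78, adjusted p = 0.0387 in edgeR). The genes that fell with the block were dlx3b (119.9 to 78.7 CPM, adjusted p = 0.0275 in edgeR with the block and 0.0654 without), msx2a (10.6 to 5.75 CPM, adjusted p = 0.0151 and 0.0727) and dlx4b (adjusted p = 0.0361 with the block). Wounded library 1 was low in dlx3b (77.6 CPM) and dlx4b (4.58 CPM) but held 10.7 CPM of msx2a, as much as the control mean, and with all 8 libraries and no block msx2a had an adjusted p of 0.253. The genes dlx3b and dlx4b are neighbours that act together in the preplacodal ectoderm of zebrafish.

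Among 25 junction and polarity genes that Grainyhead-like factors act on, or their close relatives, 0 rose and 1 fell, 16 were negative and the median was -0.10. Of the 32 symbols of this list, dspa, dspb, jupa, jupb, marveld2b, pkp1b and pkp3b were not matched to an identifier. Several desmosomal genes are therefore missing from these counts. The gene that fell was esrp2, an epithelial splicing regulator, at 136 to 168 CPM in control and 79.2 to 102 CPM in wounded libraries 2 to 4, with 80.1 CPM in wounded library 1 (log2 fold change -0.70, adjusted p = 0.0392 in edgeR). All 4 wounded libraries were below all control libraries, as they were for tfap2a. Its relative esrp1 had a mean of 426 CPM in control and 292 CPM in wounded libraries 2 to 4 (-0.55, adjusted p = 0.0712 in edgeR and 0.0206 with the block). The claudin gene cldnb, a tight junction component, was higher, at 1723 and 2480 CPM (0.52, adjusted p = 0.0566 and 0.0100 with the block).

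A further list held 17 tested hemidesmosome, basement membrane and basal keratinocyte genes that p63 is known to act on, or their close relatives. Of these, 0 passed in edgeR over 7 libraries, and the median was 0.12. At an unadjusted p under 0.05 in edgeR, 5 were higher and 3 lower, without the share of all genes at that cut-off. DESeq2 called 1 higher and 1 lower. With the block 3 were higher and 1 was lower in edgeR. Among the higher genes were lama5 (0.59, adjusted p = 0.0630 in edgeR and 0.04997 with the block) and lamb3 (0.55, 0.170 and 0.0380), laminin genes that encode basement membrane chains. For lamb3, wounded library 1 went the other way, at 199 CPM below all control libraries (293 to 497 CPM), and it held 57.8 CPM of lama5, within the control range. With all 8 libraries and no block the adjusted p was 0.658 for lamb3 and 0.136 for lama5, and with the block over 8 libraries 0 of these genes were higher. The Notch ligand gene jag2b was the lower gene, at 193 ± 37.7 CPM (SD, n = 4) in control corneas and 109.996 ± 31.2 CPM (SD, n = 3) in wounded corneas (-0.82, adjusted p = 0.0736 in edgeR and 0.00602 with the block).

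Among 15 genes of the periderm and superficial layer, 1 rose and 0 fell, 10 were negative and the median was -0.11. The gene that rose was krt18a.1, a keratin gene named above among the epithelial markers. Next by p came agr1 (-0.62, adjusted p = 0.101 in edgeR) and krt8 (0.39, adjusted p = 0.102). Wounded library 1 held 712 CPM of agr1, above all control libraries. With the block over 7 libraries anxa1c, an annexin gene, was lower (adjusted p = 0.0236 in edgeR), but wounded library 1 held 459.6 CPM, against 187 to 339 CPM in wounded libraries 2 to 4 and a control mean of 398 CPM. With all 8 libraries and no block its adjusted p was 0.511, and with the block over 8 libraries 0 periderm genes were lower.

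Of 11 tested genes that OVOL proteins repress in mammalian epithelia, or their close relatives, 1 rose and 0 fell, 2 were negative and the median was 0.40. The symbols fn1a, fn1b and zeb2b of this list were not matched to an identifier. The gene that rose was snai1b, a Snail factor of epithelial-mesenchymal transition, which lay between 5.77 and 7.25 CPM in control and between 10.1 and 15.0 CPM in wounded libraries 2 to 4, with 8.95 CPM in wounded library 1 (log2 fold change 1.05, adjusted p = 0.0344 in edgeR). Every wounded library was above every control library, and with all 8 libraries the adjusted p was 0.0510. A second gene, twist1a, had 23.4 ± 3.73 CPM (SD, n = 4) in control corneas and 41.4 ± 12.8 CPM (SD, n = 3) in wounded corneas (0.82, adjusted p = 0.0883 in edgeR and 0.0262 with the block), and cdh2, which encodes N-cadherin, had 0.40 (adjusted p = 0.162). The groups overlapped for twist1a, at 19.8 to 28.6 CPM in control and 26.6 to 49.3 CPM in wounded libraries 2 to 4. Wounded library 1 held 29.3 CPM of twist1a, and with all 8 libraries and no block its adjusted p was 0.119 in edgeR.

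**Figure D5:**
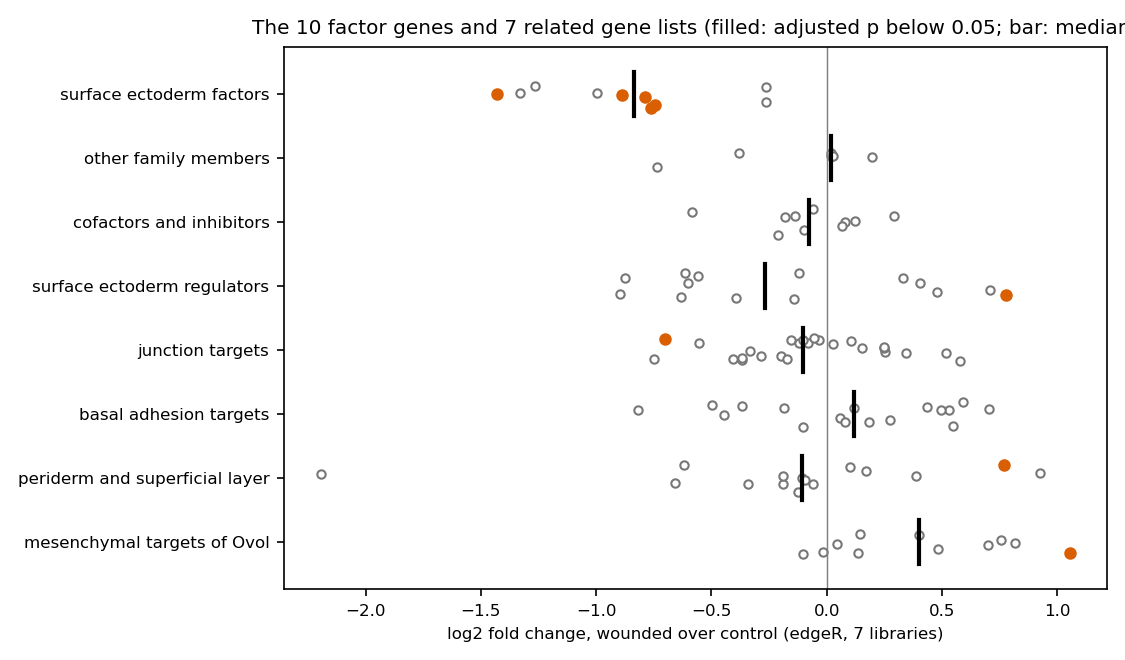
Log2 fold change (horizontal axis, edgeR with 7 libraries) of the 10 factor genes and of the tested genes of 7 related lists, 1 point per gene. Filled points have an adjusted p under 0.05 and the vertical bar is the median of a list. The 10 factor genes have a median of -0.84 and no point above 0, and the medians of the other lists lie between -0.27 and 0.40.

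The genes whose profiles over the 8 libraries were most like those of the 8 genes that passed with the block were found by the root mean square difference between centred log2 profiles, for which a smaller value is more alike. For tfap2a, whose own spread was 0.681, they were the GORAB gene (0.158), a PAX6 copy (ENSDARG00000103379, 0.180) and a GAS1 copy (ENSDARG00000077298, 0.180). For tfap2b they were socs5a (0.081), inavaa (0.108) and WNT4 (0.120). For tfap2c they were si:dkey-221l4.10 (0.115), MSL2 (0.119) and grhl2a (0.124), the single case in which 1 of the 10 genes was among the nearest 3 of another. The gene si:dkey-221l4.10 was also near grhl2a (0.095), together with si:dkey-172k15.3 (0.089) and USF3 (0.101).

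The nearest profiles to ovol1a were those of arid6 (0.142), si:ch73-236c18.8 (0.212) and tmprss4a, a membrane serine protease gene (0.216), against an own spread of 0.792. Those nearest to ovol1b were trim108 (0.132), si:ch73-59f11.3 (0.133) and linc.pou2af1 (0.175), and its copy ovol1a was farther away, at 0.384. For grhl1 the nearest were TBC1D14 (0.071), DDI2 (0.088) and SNRK (0.091), and for grhl2b they were NCEH1 (0.171), rlf (0.174) and abca1b (0.175). These genes were selected for their likeness from 18935 genes, so their own fold changes were not read further, apart from that of the PAX6 copy given above.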

How the data were processed

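Gene counts of 8 corneal libraries of zebrafish were used. The authors sequenced polyadenylated RNA with a directional kit as single-end reads, mapped them to GRCz11 with STAR 2.6.0c and counted them with featureCounts (Subread 1.22.2, Ensembl release 97). The deposited table holds raw counts of each gene, not normalized, and Trimmomatic is named without settings. The strand setting and the treatment of multiply mapped reads are not given in the sources used here, so reads shared by similar copies or by overlapping antisense genes are uncertain.

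Counts were analysed with edgeR 4.0.16 in R 4.3.3 (filterByExpr, TMM, quasi-likelihood test, Benjamini-Hochberg adjustment over all genes tested, threshold 0.05, intervals at 95%), and plots were made in Python 3.11.15 (matplotlib 3.10.9). Ratios used log2(CPM + 0.5) where set against the markers, and unaltered CPM between pairs of the 10 genes. The script was tested on simulated data. Total counts of 39472162 to 44250662 per library set the counting error, which the SD between libraries includes. Alternatives were DESeq2 1.42.0, its size factors, no filter (at least 1 count), at least 10 counts in every library, all 8 libraries, the tank as a block, and leaving out each library. DESeq2 with the block and the changed samples for the ratios were added after seeing the data.

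The study states that control and wounded fish of a replicate shared tank and age, so the numbers pair the libraries. Across 18935 genes, the deviations from the group mean correlated between libraries with the same number at 0.196, 0.316, 0.267 and 0.322 for numbers 1 to 4, and those of other numbers between -0.211 and -0.000626. The fit without the block leads because the study names no block. In the block fit over 7 libraries control library 1 has no partner.

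The 10 genes and the lists were chosen with earlier results of these data known, and are no independent evidence of a direction. Of 194 list and marker symbols 152 were matched, through tables in which 29201 identifiers have a symbol. Symbols that were not matched are missing from the counts and medians of their lists. The text names all 10 genes, the 3 genes with the smallest p of each of the 7 related lists, and the 3 profiles most like each of the genes that passed with or without the block. The marker lists are given as sums and counts of calls, and only some of their genes are named. The genes dlx4b, lamb3 and anxa1c were added after their values were seen, as calls with the block, and tfap2e was added as a further AP-2 gene. A withheld item among the named genes is not reported here. Sequences, promoter motifs and levels per length were not analysed here, so levels are not compared between genes.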

Additional observations from a re-analysis of the deposited data

Results flagged for a closer look

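Among 70 groups of 4 libraries examined for the genes named by rule, 4 held a library far from the other 3 by Dixon's criterion, where chance alone gives about 1 in 20, or 3.5. In the junction list, esrp1 was at 371 CPM in control library 1, below the other control libraries, and esrp2 was at 168 CPM in control library 3, above them. The keratin gene krt18a.1 was at 353 CPM in control library 2, below the other control libraries. The N-cadherin gene cdh2 was at 106 CPM in wounded library 1, below the other wounded libraries, which is the library that the study left out. None of the 10 surface ectoderm factor genes met the criterion.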

How the results depend on the processing

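No fold change of the 10 genes changed sign under any alternative run. Outside the fits that leave out 1 library, 64 of their calls were unaltered, 13 passed where they had not and 3 no longer passed. Of the 10 genes 8 fell in DESeq2, 8 with the tank as a block over 7 libraries, 8 in DESeq2 with the block and 2 with all 8 libraries, against 5. Over all genes 610 rose and 709 fell in DESeq2, 276 and 204 without a filter, 514 and 475 with the block over 7 libraries, 456 and 349 with the block over 8, and 759 and 788 in DESeq2 with the block, against 139 and 120. Surface ectoderm regulators that fell numbered 4 in DESeq2, 1 without a filter, 3 with the block and 2 with the block over 8 libraries, against 0. For junction genes 1 rose in DESeq2, without a filter, at 10 counts and in both block fits, against 0, and 3 fell in DESeq2 and 2 in both block fits, against 1. For basal adhesion genes 1 rose in DESeq2, without a filter and at 10 counts and 3 with the block, and 1 fell in DESeq2, without a filter and in both block fits, against 0. Among periderm genes 1 fell in DESeq2 and with the block, against 0. Mesenchymal genes that rose numbered 2 in DESeq2 and in both block fits and 0 with all 8 libraries, against 1. The causes were not tested.

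Leaving out 1 library gave 10 to 264 genes that rose and 7 to 192 that fell, 1 to 5 of the 10 genes that fell, and 0 to 1 for each list count that varied (basal adhesion higher, junction lower, mesenchymal higher, periderm higher, surface ectoderm regulators higher and lower). Relative to the epithelial markers, grhl1 moved from -0.996 to -0.80 with all 8 libraries. The interaction with age called 0 of the 10 genes under each alternative. Levels per length and their alternative were not run. Few reads limit ovol1b, at 58 to 229 counts per library.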
